A study of Mus musculus with 16 samples.

Results

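The insulin-like growth factor (IGF) axis of brain endothelial cells is described here through 10 genes, namely 6 IGF binding proteins (Igfbp2, Igfbp3, Igfbp4, Igfbp5, Igfbp6 and Igfbp7), 3 receptors (Igf1r, Igf2r and Insr) and the receptor adaptor Irs2. They are 10 of the 39057 rows of a table of read counts, found by their gene identifiers, and 9 of the 10 had enough counts to be among the 12481 genes tested. The genes were selected on earlier results of these same counts, including the contrast between *APOE4* and *APOE3*. Their values in that contrast are therefore given as a description, with no p-value for a member, and the number of members under the threshold is printed only beside the share of all genes. The effect of sex did not enter the selection and is tested. The lists of other pathway genes were likewise drawn up with earlier results known, so their counts in the genotype contrast are not independent evidence either.

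RNA was measured in 16 cultures of primary cortical endothelial cells from mice in which human *APOE3* or *APOE4* replaces mouse Apoe and is driven by the mouse gene's own promoter. Each genotype had 8 cultures from 8 animals, 4 male and 4 female, aged 21 to 28 days, and there was no culture with the mouse gene intact. Every culture was selected with puromycin (8 μg/ml), was otherwise untreated and was grown to confluence in EGM-2 MV medium, so that agents of the medium were shared by both genotypes. This commercial endothelial medium is supplied with growth factors that include an IGF-1 analogue, which means that ligand was added from outside in all cultures.

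In this family, IGF-1 and IGF-2 signal through the receptor tyrosine kinase encoded by Igf1r, and insulin through that encoded by Insr. Both receptors pass the signal through adaptors such as Irs2 to PI3K and AKT. Igf2r encodes a receptor without a kinase that takes up IGF-2 and mannose-6-phosphate-tagged lysosomal enzymes, and it is imprinted in mice. IGF binding proteins are secreted, hold IGFs away from or near their receptors, and are cut by proteases. Igfbp7 binds IGFs with low affinity and is known as a product of vascular endothelium, and Igfbp3, Igfbp4 and Igfbp5 are expressed by endothelial cells of several beds.

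Total counts per library were 12717847 to 18624417. Human APOE was read at 1003 to 1425 CPM (counts per 1000000 counts of the TMM-scaled library) in *APOE3* and 609.4 to 1013 in *APOE4* libraries, a count that does not separate the isoforms, and Xist and Ddx3y matched the labelled sex in all 16 libraries. The row of mouse Apoe was not empty, at 14.1 to 18.1 CPM in *APOE3* and 10.2 to 14.9 CPM in *APOE4* libraries. The origin of these reads was not tested. All 23 brain endothelial marker genes were tested, and their summed level was 21979 to 23341 CPM in *APOE3* and 21394 to 23536 CPM in *APOE4* libraries. Markers of other cells were far lower. Pericyte and smooth muscle markers summed to 192.8 to 361.8 CPM in *APOE3* and 227.3 to 345.1 in *APOE4* libraries, with 9 of 14 tested. Fibroblast markers summed to 24.9 to 75.4 and 28.4 to 106.5 CPM, with 5 of 10 tested and Dpt at 0. Microglia and macrophage markers summed to at most 10.5 CPM with P2ry12 and Itgam at 0, oligodendrocyte markers to at most 1.97 CPM with Olig1 and Olig2 at 0, neuron markers to at most 18.7 CPM and astrocyte markers to at most 43.6 CPM. Most of the astrocyte sum was Gja1 (33.5 ± 3.50 and 36.6 ± 2.66 CPM), and the list's other genes had means of at most 2.56 CPM. Of all these markers, the endothelial gene Emcn and the fibroblast gene Fbln1 were called higher and the endothelial genes Slco1c1 and Slc7a5 lower in *APOE4*, and the part of other cells in the levels of the members was not tested. In a culture, a lower level can mean fewer cells of a type or less RNA per cell, and these cannot be told apart here.

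Expressed per kilobase of exon, the members covered a range from Igfbp7 at 1395 ± 67.8 to Igfbp2 at 0.197 ± 0.142 CPM per kb (SD, n = 16 libraries). Igfbp7 stood above Igfbp3 (495 ± 25.1 CPM per kb) in 16 of 16 libraries, and together they made up 97.9% ± 0.341 of the summed level of the 6 binding proteins in *APOE3* and 98.5% ± 0.187 in *APOE4* libraries. This order rests on the scaling by length. In CPM, Igfbp7 lay below Igfbp3 in *APOE3* replicates 25 (1533 against 1582) and 33 (1552 against 1681). How evenly reads cover the exons was not tested. Per kilobase, Igf1r came next at 41.9 ± 3.98, followed by Igfbp4 at 31.0 ± 6.28 and Insr at 30.8 ± 3.01 CPM per kb. Igfbp4 lay above Insr in only 7 of 16 libraries, so this neighbouring pair has no fixed order. The means of the pair stood at 35.1 and 32.0 CPM per kb in *APOE3* and at 26.9 and 29.6 in *APOE4* libraries, in opposite order. With the length of the longest transcript in place of all exons, Insr lay above Igfbp4 in 15 of 16. Igf2r followed at 18.8 CPM per kb (range 12.3 to 24.0), below Insr in every library. The remaining 4 genes were scarce. Igfbp5 had 1.98 ± 0.908, Igfbp6 0.943 ± 0.545 and Irs2 0.472 ± 0.197 CPM per kb, and Igfbp5 lay above Igfbp6 in 13 and Igfbp6 above Irs2 in 14 of 16 libraries.

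**Figure D1:**
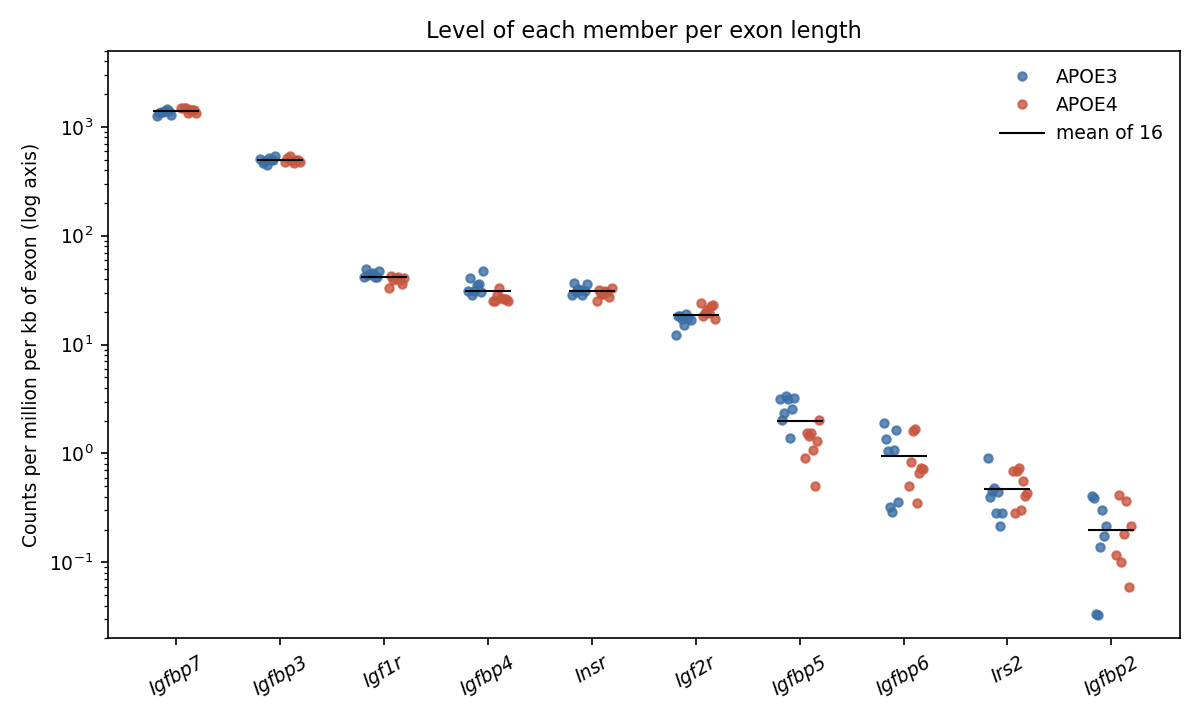
Level of the 10 genes in CPM per kilobase of exon on a log axis, with a point for each library coloured by genotype and a bar at the mean of 16 libraries. Igfbp7 and Igfbp3 lie far above the receptors, and Igfbp5, Igfbp6, Irs2 and Igfbp2 lie lowest; the 1 library without an Igfbp2 count has no point.

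The spread between libraries was larger for the scarce genes. The biological coefficient of variation fitted by edgeR was 5.86% for Igfbp7, 6.41% for Igfbp3, 7.68% for Igf1r and 8.92% for Insr. It was 28.4% for Igfbp5, 33.7% for Irs2 and 47.7% for Igfbp6, which put these genes at percentiles 96.5, 98.2 and 99.5 of the spread of all tested genes. All 3 had low counts, with 45 to 337 per library for Igfbp5, 21 to 93 for Irs2 and 5 to 34 for Igfbp6. In edgeR's model the coefficient is the spread beyond counting error. How well it is estimated at such counts was not tested. For the ligands, transcripts were near the floor of 3 counts. Igf1 had 3 to 20 counts per library and was not tested, Igf2 had 0.962 ± 0.684 CPM in *APOE3* and 0.738 ± 0.490 in *APOE4* libraries (n = 8 each), and Ins1 and Ins2 had 0 counts in every library.

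Of the 9 tested members, 4 had an adjusted p under 0.05 for genotype in edgeR's quasi-likelihood test over all genes, 3 of them lower and 1 higher in *APOE4*. Over all tested genes the share was 12.8%, with 6.71% called higher and 6.09% called lower. Since the members were selected with this contrast known, nothing is read from their share. The libraries of the genotypes overlapped for all 9 members, and 0.625% of all tested genes had no overlap. The median log2 fold change was -0.11 over the 9 members and -0.00022 over all 12481 genes.

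Promoters are shown for the 4 members described most closely below, those with an adjusted p under 0.05 in the genotype contrast. Each line gives the 100 bases that end just before the RefSeq start of transcription (GRCm38.p6), 5′ to 3′ on the strand of the gene, with capitals for matches to the motifs searched. The windows lie at chr1:72874866-72874965 (minus strand, Igfbp5), chr11:99041144-99041243 (plus strand, Igfbp4), chr7:67952157-67952256 (plus strand, Igf1r) and chr17:12769707-12769806 (minus strand, Igf2r).
Igfbp5: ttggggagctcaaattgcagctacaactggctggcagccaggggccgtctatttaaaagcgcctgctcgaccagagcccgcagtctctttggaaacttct
Igfbp4: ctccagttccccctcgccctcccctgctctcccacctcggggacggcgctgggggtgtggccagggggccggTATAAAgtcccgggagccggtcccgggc
Igf1r: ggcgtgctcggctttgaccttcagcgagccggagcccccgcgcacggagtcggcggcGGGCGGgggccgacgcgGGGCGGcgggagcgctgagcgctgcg
Igf2r: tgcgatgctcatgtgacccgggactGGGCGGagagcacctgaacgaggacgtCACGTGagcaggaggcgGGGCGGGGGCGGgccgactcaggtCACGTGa

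Across the full 300 bases that RefSeq gives for each start, from 250 bases before it to 50 bases after, 5 motifs were searched on both strands, and 9 of the 10 genes had an entry, Igfbp2 with 2 starts. The TATA box (TATAAA) was found 28 bases before the start of Igfbp4 and on the other strand in Igfbp6, and 13.6% of the 32851 promoters hold it. The GC box (GGGCGG), present in 35.7% of promoters, occurred 2 times in Igf1r, 3 times in Igf2r and 4 times in Igfbp7, and was also found in Irs2 and at the first start of Igfbp2. Igf2r held the E-box CACGTG 2 times, a motif of 7.15% of promoters that Irs2 and the first start of Igfbp2 held as well. None of these promoters had the FoxO motif GTAAACA (3.65% of promoters) or the cyclic AMP response element TGACGTCA (1.79%). The windows of Igfbp3 and Igfbp5 matched none of the 5 motifs, and no matches overlapped. The GC content of the printed 100 bases was 55% for Igfbp5, 75% for Igfbp4, 81% for Igf1r and 69% for Igf2r.

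Igfbp5 had the largest genotype difference of the 9 tested members. The gene (ENSMUSG00000026185.8, chr1:72857932-72874884, minus strand) lies end to end with Igfbp2 on chromosome 1 and encodes a binding protein that also attaches to extracellular matrix. *APOE3* libraries had 8.31 CPM at the lowest, 17.2 at the median and 20.3 at the highest. The corresponding values of *APOE4* libraries were 3.03, 8.29 and 12.2 CPM. All 8 *APOE4* libraries lay below the *APOE3* median and 6 of 8 *APOE3* libraries lay above the highest *APOE4* library, with replicate 31 of *APOE3* as the low sample of its group. The mean was 15.9 ± 4.24 in *APOE3* and 7.79 ± 2.80 CPM in *APOE4* (SD, n = 8), a log2 fold change of -1.03 (SE 0.206), which is 51.1% less on the scale of the means, as the ratio of 0.489 shows. In males the log2 fold change was -0.99 (SE 0.302) and in females -1.08 (SE 0.305).

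Igfbp4 encodes a binding protein that inhibits IGF action until it is cut by pregnancy-associated plasma protein A (ENSMUSG00000017493.12, chr11:99041244-99054392, plus strand). Its lowest, median and highest levels were 126.1, 146.8 and 207.8 CPM in *APOE3* libraries. In *APOE4* libraries they were 111.0, 115.1 and 145.2 CPM. A total of 7 of the 8 *APOE4* libraries were below the lowest *APOE3* library, and replicate 38 was the exception. The log2 fold change was -0.38 (SE 0.0863), with -0.24 (SE 0.119) in males and -0.52 (SE 0.119) in females. The 4 female *APOE4* libraries lay close together at 114.7 ± 2.69 CPM, against 164.5 ± 31.0 CPM in female *APOE3* libraries.

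The abundant binding proteins showed little difference. Igfbp3, which encodes the main IGF carrier of plasma (ENSMUSG00000020427.11, chr11:7206086-7213923), had 1548 ± 84.6 CPM in *APOE3* and 1549 ± 78.3 CPM in *APOE4* libraries. Its log2 fold change was 0.0014 (SE 0.0382), with an approximate 95% interval from -0.073 to 0.076. Igfbp7 (ENSMUSG00000036256.13, chr5:77349240-77408041) had 1645 ± 76.0 and 1727 ± 68.9 CPM, a log2 fold change of 0.07 (SE 0.0337), and 3 of 8 *APOE4* libraries lay above the highest *APOE3* library. Exons of Igfbp7 share 85 bases with Polr2b on the opposite strand, and how strand was used in counting is not given in the sources used here.

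Igfbp6 and Igfbp2 were too scarce for a statement on genotype. Igfbp6, whose product prefers IGF-2, ranged from 0.319 to 2.12 CPM in *APOE3* and from 0.394 to 1.86 CPM in *APOE4* libraries, with a log2 fold change of -0.17 (SE 0.387). Its interval, from -0.93 to 0.59, holds changes of considerable size in either direction. Igfbp2 had 0 to 13 counts per library and 91 counts in all, with a mean of 0.393 ± 0.270 CPM in *APOE3* and 0.336 ± 0.269 CPM in *APOE4* libraries, and did not pass the filter on low counts. A difference in Igfbp2 was not detectable at this depth.

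**Figure D2:**
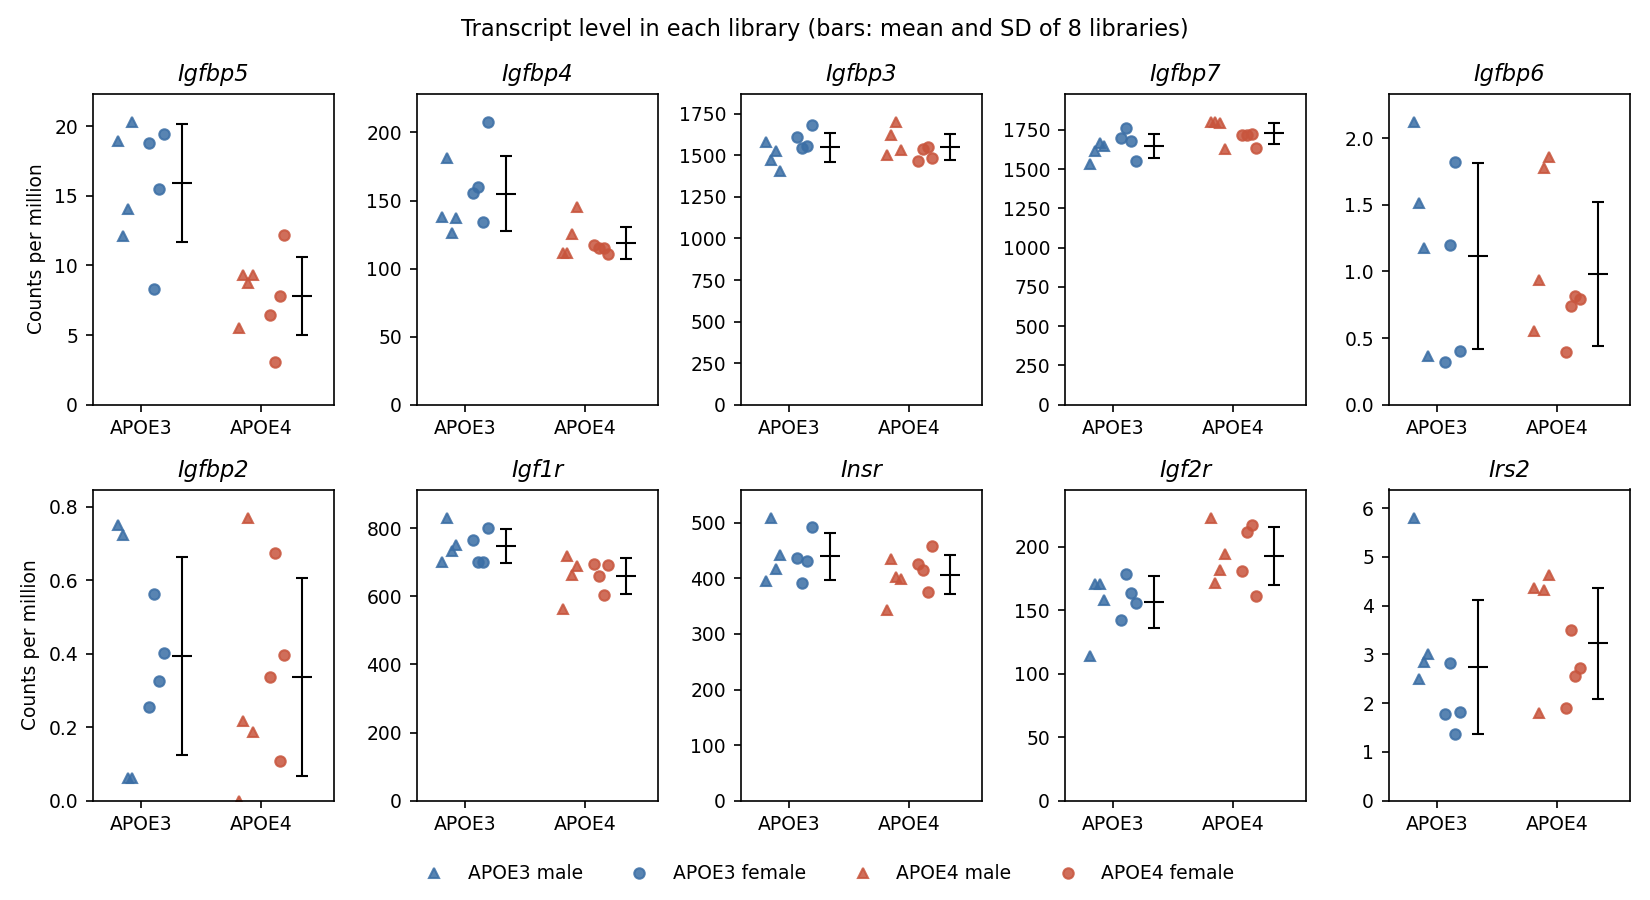
CPM of each gene in the 16 libraries, by genotype (blue, *APOE3*; red, *APOE4*) and sex (triangles, male; circles, female), with bars for the mean and SD of 8 libraries and every axis starting at 0. Igfbp5, Igfbp4 and Igf1r lie lower and Igf2r higher in *APOE4* libraries, all with some overlap.

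Among the receptors, Igf1r and Igf2r differed in opposite directions. Igf1r (ENSMUSG00000005533.10, chr7:67952827-68233668, plus strand) had a lowest, median and highest level of 700.1, 741.4 and 830.5 CPM in *APOE3* and of 561.8, 674.5 and 718.2 CPM in *APOE4* libraries. A single *APOE4* library, replicate 36, reached into the *APOE3* range. The log2 fold change was -0.18 (SE 0.0494), and it was -0.20 (SE 0.0736) in males and -0.16 (SE 0.0736) in females.

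Igf2r (ENSMUSG00000023830.13, chr17:12682406-12769664, minus strand) had a lowest, median and highest level of 114.3, 161.1 and 179 CPM in *APOE3* libraries. The *APOE4* values were 161.3, 188.5 and 223.0 CPM, and 6 of 8 *APOE4* libraries were above the highest *APOE3* library. The log2 fold change was 0.30 (SE 0.0801), with 0.33 (SE 0.118) in males and 0.27 (SE 0.118) in females. The ratio of Igf2r to Igf1r, both per kilobase, was 0.379 ± 0.0540 in *APOE3* and 0.534 ± 0.105 in *APOE4* libraries.

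Insr, the insulin receptor gene (ENSMUSG00000005534.10, chr8:3122061-3279617), had 439.4 ± 42.2 CPM in *APOE3* and 406.8 ± 35.7 CPM in *APOE4* libraries. Its log2 fold change was -0.11 (SE 0.0596), and the groups overlapped widely, from 391.8 to 509.0 and from 343.7 to 458.3 CPM. The ratio of Igf1r to Insr per kilobase was 1.40 ± 0.0572 in *APOE3* and 1.33 ± 0.0497 in *APOE4* libraries. Irs2, the adaptor gene (ENSMUSG00000038894.7, chr8:10984681-11008458), ranged from 1.37 to 5.80 CPM in *APOE3* and from 1.80 to 4.64 CPM in *APOE4* libraries. Its log2 fold change was 0.22 (SE 0.261). The highest value belonged to *APOE3* replicate 25, and without that library the log2 fold change was 0.48.

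**Figure D3:**
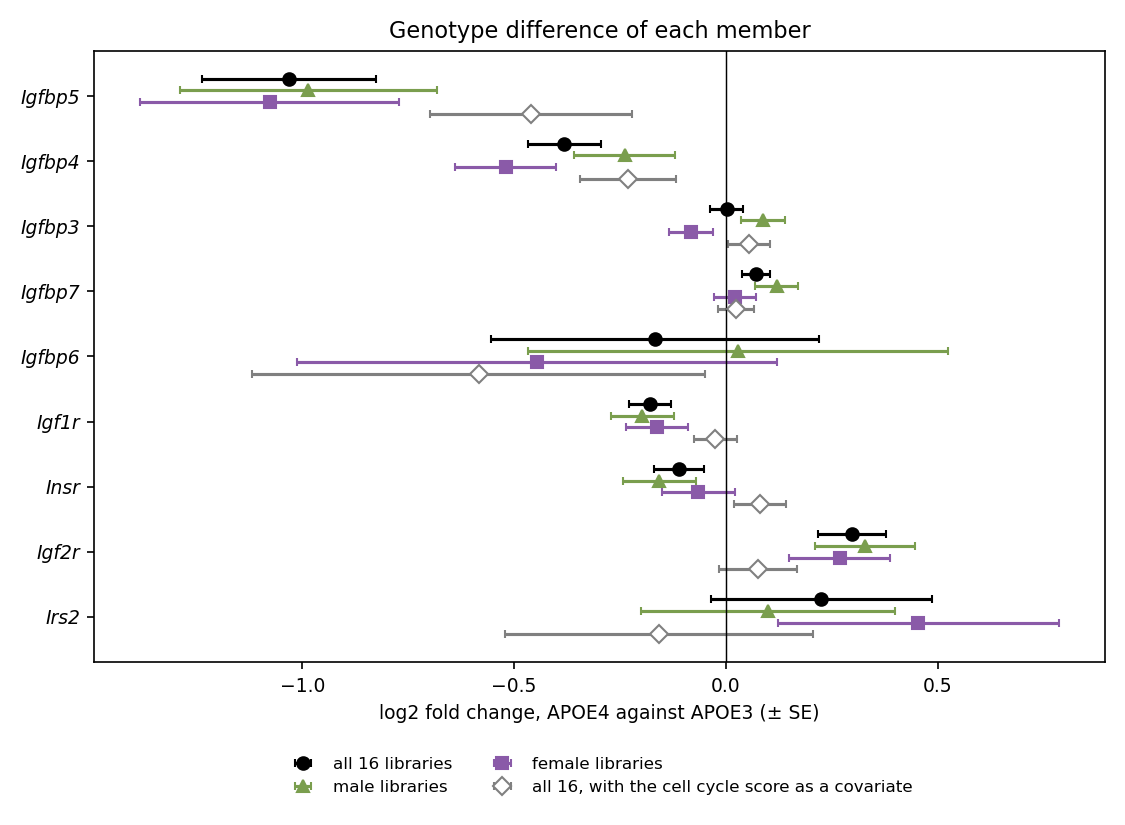
Log2 fold change of *APOE4* against *APOE3* for the 9 tested members with standard errors, in all 16 libraries (black circles), in males (triangles), in females (squares) and after adjustment for the cell cycle score (open diamonds). Igfbp5 lies at -1.03, Igfbp4 at -0.38, Igf1r at -0.18 and Igf2r at 0.30 in all libraries, and at -0.46, -0.23, -0.03 and 0.08 after the adjustment.

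Leaving out each library in turn gave the range of these differences. The log2 fold change ran from -1.15 to -0.91 for Igfbp5, from -0.43 to -0.31 for Igfbp4, from -0.20 to -0.15 for Igf1r and from 0.24 to 0.33 for Igf2r. Among the other members it ran from 0.12 to 0.48 for Irs2, from -0.36 to 0.04 for Igfbp6, from -0.14 to -0.08 for Insr, from 0.06 to 0.09 for Igfbp7 and from -0.02 to 0.02 for Igfbp3. Without *APOE4* replicate 41, 846 of the 12546 genes tested had an adjusted p under 0.05, among them 2 members (Igfbp5 and Igfbp4). Igf1r was above the threshold also without *APOE3* replicate 26 or 33. The number of all genes under the threshold was 853 without *APOE3* replicate 30 and 952 without replicate 33. Since the members were selected with this contrast known, these counts only describe the dependence on single libraries.

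Transcripts of the cell cycle moved with genotype in the same libraries. All 40 cell cycle genes were tested, and all 40 had a log2 fold change above 0 in *APOE4* cells, with a median of 0.65. Of these, 38 were called higher and 0 lower by edgeR, beside 6.71% and 6.09% of all tested genes. This list, too, was drawn up with the contrast known, and its count is given as a description. Mki67, a marker of cycling cells, rose from 255.3 ± 69.6 to 410.1 ± 80.5 CPM (log2 difference 0.68, SE 0.146, edgeR adjusted p = 0.0082), and Top2a, which encodes a DNA topoisomerase of dividing cells, from 156.8 ± 43.5 to 245.8 ± 46.4 CPM (0.65, SE 0.142, adjusted p = 0.0089). These are transcript levels. At confluence, the paper found neither cell density nor bromodeoxyuridine-labelled nuclei, its assay of proliferation, to differ by genotype. A score was taken as the 40 genes' mean log2 CPM, and it ranged from 4.85 to 5.87 in *APOE3* and from 5.59 to 6.37 in *APOE4* libraries. When this score was added to the fit, 0 members and 0 of all genes were called by edgeR (855 genes had an unadjusted p under 0.05), and the log2 fold changes were -0.46 for Igfbp5, -0.23 for Igfbp4, -0.03 for Igf1r and 0.08 for Igf2r. Of the other members, Insr turned from -0.11 to 0.08 and Irs2 from 0.22 to -0.16, Igfbp6 moved from -0.17 to -0.58, Igfbp7 from 0.07 to 0.02 and Igfbp3 from 0.0014 to 0.05. Genotype and score are themselves related, and their parts in these differences cannot be told apart here.

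The log2 CPM of the 9 tested members was also set against the score within each genotype, in a comparison chosen after the values were seen. Among the 8 *APOE4* libraries, Igf1r had a Pearson's r of -0.94 with the score (two-sided exact permutation p = 0.0018, adjusted p = 0.011 over 18 relations) and a Spearman's rho of -0.88 (exact permutation p = 0.0072, adjusted p = 0.064). For Insr these were -0.94 (exact permutation p = 0.0011, adjusted p = 0.010) and -0.86 (exact permutation p = 0.011, adjusted p = 0.064), and for Igf2r 0.90 (exact permutation p = 0.0011, adjusted p = 0.010) and 0.95 (exact permutation p = 0.0011, adjusted p = 0.021). Without the 2 libraries farthest from the median score, r was -0.65 for Igf1r, -0.76 for Insr and 0.81 for Igf2r (n = 6). Among the 8 *APOE3* libraries r had the same sign for all 3 genes, at -0.64, -0.61 and 0.41, and none passed the adjustment, with exact permutation p-values of 0.091, 0.11 and 0.32. Spearman's rho was -0.79 for Igf1r (exact permutation p = 0.028, adjusted p = 0.13), -0.76 for Insr (exact permutation p = 0.037, adjusted p = 0.13) and 0.67 for Igf2r (exact permutation p = 0.083, adjusted p = 0.21). Without the 2 libraries farthest from the median score, r was -0.61, -0.63 and 0.11 (n = 6). Igfbp5 had an r of -0.75 in *APOE3* libraries (exact permutation p = 0.033, adjusted p = 0.15) and of -0.43 in *APOE4* libraries (exact permutation p = 0.28, adjusted p = 0.44). Its Spearman's rho was -0.52 in *APOE3* (exact permutation p = 0.20, adjusted p = 0.39) and -0.67 in *APOE4* libraries (exact permutation p = 0.083, adjusted p = 0.21). Without the 2 libraries farthest from the median score, its r was -0.46 and -0.61 (n = 6). Igfbp4 had an r of -0.49 in *APOE3* and -0.04 in *APOE4* libraries, with a rho of -0.50 and 0.21. Without the 2 libraries its r was -0.89 and 0.58 (n = 6). Whether these relations differ between receptors and binding proteins or between genotypes was not tested. The adjustment covers these 18 relations alone, and the share of all tested genes with such a relation was not counted. Whether variation with the score is particular to these members was therefore not tested.

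**Figure D4:**
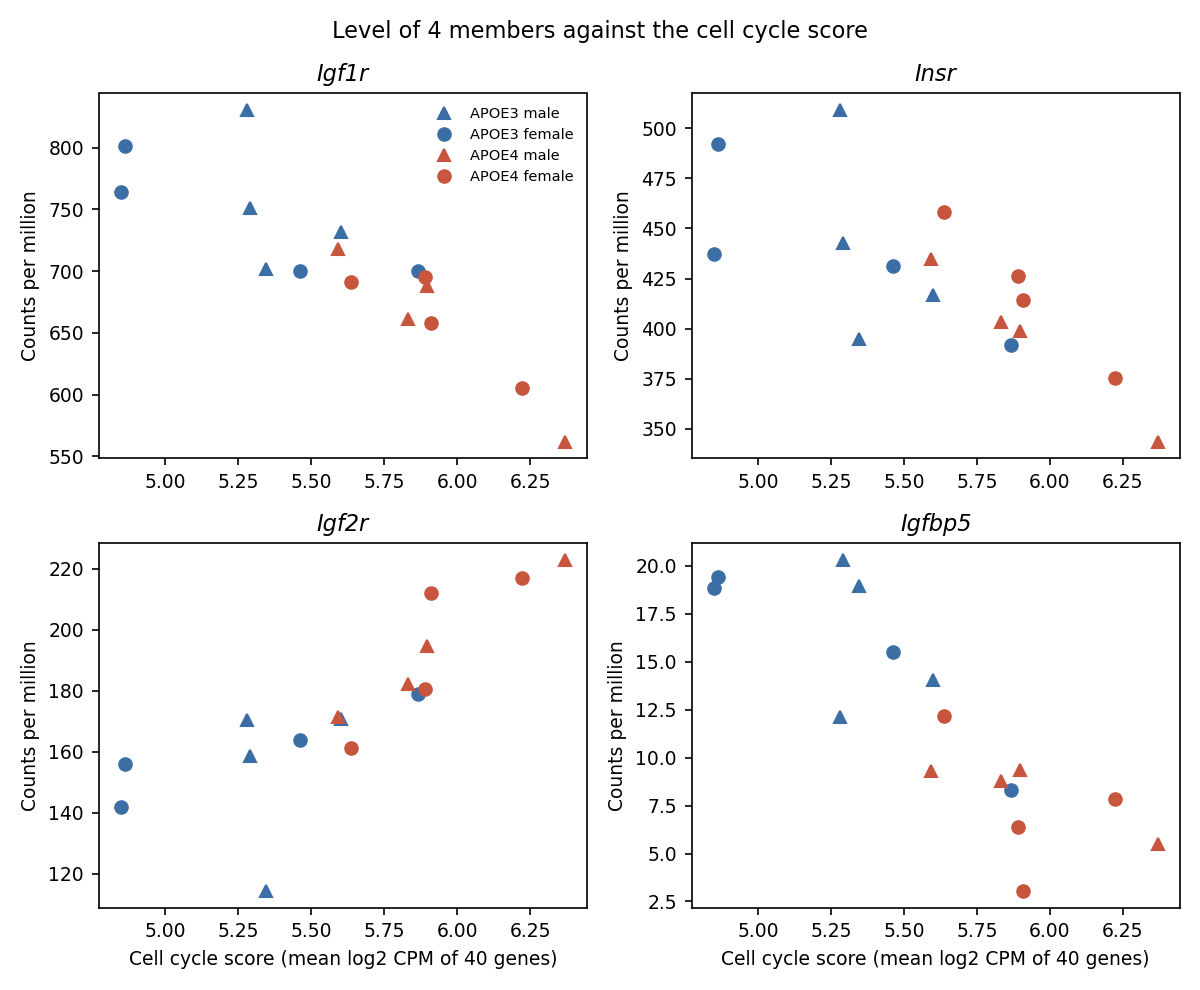
CPM of Igf1r, Insr, Igf2r and Igfbp5 against the cell cycle score (mean log2 CPM of 40 genes) in the 16 libraries, with colours for genotype and shapes for sex; the vertical axes do not start at 0. In *APOE4* libraries Igf1r and Insr are lower and Igf2r is higher where the score is higher. The r values, computed on log2 CPM, are -0.94, -0.94 and 0.90.

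The genes most like each member were sought among the other tested genes with a mean log2 CPM of at least 3 (9302 or 9303 per member) by the correlation of log2 CPM over the 16 libraries after each genotype's mean was subtracted. These correlations are a description over libraries that share their depth and cell cycle differences. Each named gene is among the top 3 of its candidates, and how high a best r unrelated genes would reach was not tested. Igfbp2, which did not pass the filter on low counts, had a best r of 0.82, against 0.81 for Igfbp3 and Igfbp4. For Insr the most similar gene was Igf1r (r = 0.91), followed by Cacna1e (0.91) and Dock9 (0.91). Igf1r was most like Txnip (0.94), Galnt15 (0.94) and Cacna1e (0.93), and Igf2r like Dgkk (0.89), Atpif1 (0.89) and Ptgfrn (0.88). Igfbp5 was closest to Siah1a (0.89), Mmp15 (0.85) and Prpf8 (0.85), and Igfbp4 to Rab11b (0.81), Flrt2 (0.79) and Mmrn1 (0.79). The abundant binding proteins had Ccdc127 (0.81), Cdyl (0.78) and Tmub2 (0.74) for Igfbp3 and Lamb2, Tmbim4 and Mrps12 (0.82, 0.82 and 0.81) for Igfbp7. The scarce genes had Mogs, Pa2g4 and Xrcc6 (0.86, 0.85 and 0.84, Irs2), Npm1, Ezr and Sf3b2 (0.82, 0.82 and 0.81, Igfbp6) and Pigv, Fbxl4 and Uri1 (0.82, 0.77 and 0.76, Igfbp2). Igfbp5 and Igfbp4, both lower in *APOE4*, hardly varied together within genotypes (r = 0.03).

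No member was called for sex. In the fit with genotype as a covariate, 9 of all tested genes were called (0.0721%), and 550 had an unadjusted p under 0.05. The lowest unadjusted p among the members was that of Irs2, which had 3.66 ± 1.33 CPM in males and 2.31 ± 0.705 CPM in females (n = 8 each), a log2 difference of -0.68 for females against males (SE 0.220, edgeR unadjusted p = 0.0057, adjusted p = 1.00). Igfbp6 had a difference of similar size, -0.69 (SE 0.367, adjusted p = 1.00). The 7 other tested members differed between the sexes by -0.12 to 0.04 on the log2 scale.

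The genotype difference was also not found to depend on sex. The share of all genes called for the interaction was 0%, as was the share of members, by edgeR, DESeq2 and limma's voom, and 345 genes had an unadjusted p under 0.05 in edgeR. Igfbp3 had the lowest unadjusted p of the members (0.031, adjusted p = 1.00 by edgeR), with a log2 fold change of 0.09 (SE 0.0516) in males and -0.08 (SE 0.0516) in females. For Igfbp4 the difference between female and male effects was -0.28 (SE 0.169, adjusted p = 1.00).

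The surrounding pathway was followed in 7 lists of genes, read beside the 12.8% of all genes that were called. No gene of these lists was called for sex. Of the ligand list, 1 of 4 genes was tested, Igf2, whose log2 difference was -0.39 (SE 0.437, adjusted p = 0.60). Of 12 relatives of the IGF binding proteins, including the CCN family of matricellular proteins, 7 were tested and 0 called by edgeR. The largest difference was that of Ccn4, at 0.62 (SE 0.239, adjusted p = 0.089).

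The proteases and stanniocalcins that release or protect IGFs had 7 of 10 genes tested, of which 2 were called higher and 0 lower. A log2 fold change above 0 was found for 4 of the 7. Htra1, a serine protease that can cut IGF binding proteins, rose from 50.5 ± 10.5 to 68.5 ± 8.78 CPM (log2 difference 0.44, SE 0.109, edgeR adjusted p = 0.015), and 7 of 8 *APOE4* libraries were above the highest *APOE3* library. Adam9, a membrane metalloproteinase, rose from 136.5 ± 9.83 to 160.5 ± 15.4 CPM (0.23, SE 0.0544, adjusted p = 0.012). Both were called in 16 of 16 fits that left out a library, and in the fit adjusted for the cell cycle score they stood at 0.14 and 0.03. Pappa, the gene of the pregnancy-associated plasma protein A named above for Igfbp4, had 0 to 4 counts per library and was not tested.

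Of 25 adaptors and negative regulators of the receptors, 21 were tested, with 4 called higher and 2 called lower in *APOE4*. A log2 fold change above 0 was found for 10 of the 21. Gigyf1, a binding partner of the adaptor Grb10, fell from 93.5 ± 10.3 to 72.2 ± 7.49 CPM (log2 difference -0.37, SE 0.0680, edgeR adjusted p = 0.0057), and 7 of 8 *APOE4* libraries were below all *APOE3* libraries. Dok4, a docking protein of tyrosine kinases, fell by 0.20 on the log2 scale (SE 0.0494, adjusted p = 0.015). Grb14, an adaptor that inhibits the insulin receptor, rose by 0.35 (SE 0.0980, adjusted p = 0.027), Dok1, another docking protein, by 0.52 (SE 0.133, adjusted p = 0.018), and Sh2b2, an adaptor of the insulin receptor, by 0.50 (SE 0.164, adjusted p = 0.048). Nedd4, a ubiquitin ligase that acts on IGF receptor signaling, rose from 1550 ± 81.1 to 1695 ± 77.0 CPM (0.13, SE 0.0365, adjusted p = 0.027). Gigyf1, Dok4 and Dok1 were called in 16 of 16 fits that left out a library, Grb14 in 13, Nedd4 in 11 and Sh2b2 in 5. Adjusted for the cell cycle score, Gigyf1 stood at -0.15, Dok4 at -0.09 and Dok1 at 0.06. Grb14 stood at 0.22, Nedd4 at 0.03 and Sh2b2 at 0.42 in that fit.

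All 28 genes of the PI3K, AKT and mTOR list were tested, with 1 called higher and 3 called lower. A log2 fold change above 0 was found for 8 of the 28. Pik3r2, a regulatory subunit of PI3K, fell from 24.1 ± 2.96 to 18.7 ± 1.95 CPM (log2 difference -0.36, SE 0.0779, edgeR adjusted p = 0.0082). Deptor, an inhibitor of mTOR, fell by 0.43 on the log2 scale (SE 0.141, adjusted p = 0.047) and Tsc1, part of the complex that restrains mTORC1, by 0.14 (SE 0.0449, adjusted p = 0.043). Pik3cd, a catalytic subunit best known from leukocytes, rose from 2.00 ± 0.451 to 3.03 ± 0.806 CPM (0.60, SE 0.181, adjusted p = 0.035). Of these, Pik3r2 was called in 16 of 16 fits that left out a library, Pik3cd in 7, Deptor in 6 and Tsc1 in 5. Deptor turned to 0.13 in the fit adjusted for the cell cycle score. There Pik3r2 stood at -0.10, Tsc1 at -0.03 and Pik3cd at 0.33.

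FoxO transcription factors are held out of the nucleus by AKT and drive genes such as Irs2 when insulin signaling is low. Of 23 FoxO factors and known targets, 19 were tested, with 1 called higher and 3 called lower. A log2 fold change above 0 was found for 7 of the 19. Txnip, an inhibitor of thioredoxin and of glucose uptake, fell from 1035 ± 93.7 to 853.0 ± 89.5 CPM (log2 difference -0.28, SE 0.0638, edgeR adjusted p = 0.011), and Klf15, a Krüppel-like factor, from 30.9 ± 7.18 to 21.8 ± 2.34 CPM (-0.50, SE 0.116, adjusted p = 0.011). Foxo3 itself fell by 0.11 on the log2 scale (SE 0.0308, adjusted p = 0.027), and Sesn3, a sestrin that restrains mTORC1, rose by 0.14 (SE 0.0455, adjusted p = 0.046). Txnip and Klf15 stayed called in 16 of 16 fits that left out a library, Foxo3 in 13 and Sesn3 in 5. In the fit adjusted for the cell cycle score, Txnip stood at -0.06, Klf15 at -0.25, Foxo3 at -0.10 and Sesn3 at 0.14.

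**Figure D5:**
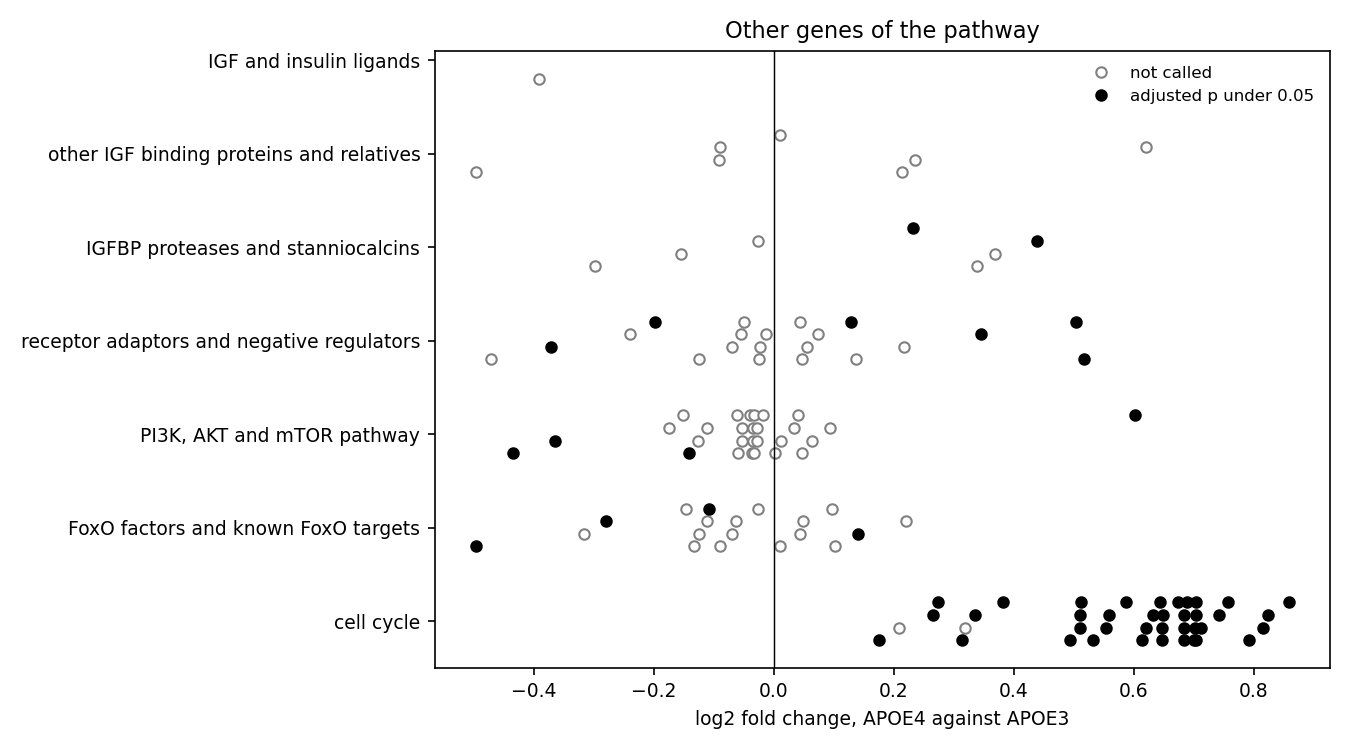
Log2 fold change of *APOE4* against *APOE3* for each tested gene of the 7 lists, filled where the adjusted p over all genes was under 0.05. In the 6 lists of the IGF and insulin pathway, called genes lie on both sides of 0 except among proteases (2 higher, 0 lower) and in the 2 lists without a call, while 38 of 40 cell cycle genes are called higher.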

How the data were processed

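The authors isolated endothelial cells from 1 cortex per well, prepared poly-A libraries from 100 ng of RNA with 17 cycles of PCR, sequenced 50 nt reads and deposited raw read counts per gene. Per the labels, the submitters' processing notes name STAR and featureCounts, and the builds hg38 and mm10, with no versions used here, and the strand setting is not given in the sources used here. The table holds 39056 mouse identifiers and human APOE. GENCODE release 21 (GRCm38) matched 38872 of them and 184 had no match. All 16 columns were mapped to samples and 0 were left over.

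Counts were filtered with edgeR 4.0.16 (filterByExpr by genotype), scaled by TMM and fitted with the quasi-likelihood F test in R 4.3.3. Genotype was the single term. Sex was tested with genotype as a covariate, and the interaction in a fit of 4 groups of 4 libraries. Benjamini-Hochberg adjustment covered the 12481 genes tested (threshold 0.05). An SE is the absolute log2 fold change over the root of F. The prior count for log2 CPM was 2. Lengths are the union of a gene's exons. Correlations with the cell cycle score used exact permutations (scipy 1.17.1). Alternatives were DESeq2's size factors and Wald test (DESeq2 1.42.0), voom (limma 3.58.1), other filters, covariates and each library left out. Fits were tested on simulated counts.

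The members and gene lists were chosen with earlier results of these data known. Named genes are the 10 members, the genes of each pathway list called for genotype or sex and that with the largest change, the 3 genes most like each member (least mean log2 CPM 3), and Mki67 and Top2a. For the cell cycle list only Mki67 and Top2a are named, and Pappa is named in addition for its link to Igfbp4. Tagln, Acta2 and Gja1 are named as the largest parts of their marker sums. Promoter sequences are from RefSeq (GRCm38.p6). RefSeq and GENCODE place some starts differently. Each library is 1 animal. Reads carry no molecular identifiers, so depth bounds only counting error, with 3 counts as the floor.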

Additional observations from a re-analysis of the deposited data

Results flagged for a closer look

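Igfbp4 in *APOE4* replicate 38 lay apart from the rest of its group, at 145.2 CPM against 111.0 to 125.4 CPM in the other 7 libraries. Irs2 in *APOE3* replicate 25 lay apart as well, at 5.80 CPM against 1.37 to 3.02 CPM. The gap to the nearest library was 0.579 and 0.628 of the group's range, above Dixon's 95% critical value of 0.526 for 8 samples. A total of 20 groups were looked at in this way, and chance alone flags about 1 in 20.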

How the results depend on the processing

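The count of genes called for genotype was 846 to 2127 when a library was left out, and that of members called was 2 to 4, with the lowest values without *APOE4* replicate 41. The members were selected with this contrast known, so nothing is read from their count. Adjusted for the cell cycle score, both counts were 0 in edgeR, the only tool run with it; the cause was not tested. The count of genes called for sex was 4 where at least 10 counts were required in every library. DESeq2's Wald test called 1958 genes for genotype. Members without a call changed sign in some fits. For sex, the log2 differences without a library ran from -0.0389 to 0.0181 for Igf1r, -0.0265 to 0.0686 for Igf2r, -0.00845 to 0.0341 for Igfbp3, -0.0376 to 0.0867 for Igfbp4 and -0.0156 to 0.0125 for Igfbp7, which was at -0.00082 with no covariate. For the interaction they ran from -0.0329 to 0.0803 for Igf1r, -0.122 to 0.0607 for Igf2r, -0.426 to 0.155 for Igfbp5 and -0.822 to 0.0877 for Igfbp6. The genotypes share no replicate numbers, and no paired analysis was possible because each number names a single culture. Replicates 25 to 33 are all *APOE3* and 35 to 43 all *APOE4*. Any effect that follows this order cannot be told apart from genotype. Depth limits Igfbp2, Igfbp6 and Irs2, with at most 93 counts in a library.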
